A study of Homo sapiens with 6 samples.

Results

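The non-clustered delta protocadherins are a group of single-gene cadherin-superfamily adhesion receptors, and their probe sets were taken from an array comparison of U251 cells, a human glioma line. The 9 genes PCDH1, PCDH7, PCDH8, PCDH9, PCDH10, PCDH17, PCDH18, PCDH19 and PCDH20 were followed through every probe set that the platform annotation gives to one of them alone. This gave 22 probe sets for 8 of the genes, out of 41091 probe sets with a single gene symbol and 54675 on the array. Both probe sets that list PCDH20 also list LINC02339, so PCDH20 had none of its own. The group was chosen by the high intensity of PCDH10 on the PARK2 arrays relative to the control arrays. Its values in that comparison are therefore a description, without a test, and the counts of probe sets past a threshold are given beside the share of all probe sets.

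One line was U251 stably overexpressing PARK2, the gene of the ubiquitin ligase parkin (3 arrays), and its control was U251 stably overexpressing GFP (3 arrays). Both lines had been infected with viral particles and selected with puromycin, per the labels, which name neither the promoter of the transgene nor whether a line was a clone or a pool. The arrays of a group are called biological replicates without saying that they came from separate cultures, so errors and p-values measure the spread between these arrays, which may be technical. With a single line per group, a difference due to PARK2 cannot be told apart from any other difference between the lines. Below, rose and fell mean higher and lower in the PARK2 line than in the control line. Each value is a linear intensity for a probe set on an array. In RNA from a whole culture, more cells that express a gene and more RNA per cell cannot be told apart.

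Delta protocadherins carry extracellular cadherin repeats that bind the same protein on a neighbouring cell, a single membrane span and a cytoplasmic tail with short conserved motifs. They are known from the developing nervous system, where they take part in cell sorting, axon growth and synapse formation. They fall into the delta-1 subfamily (PCDH1, PCDH7 and PCDH9 here), whose tails carry a docking motif for protein phosphatase 1, and the delta-2 subfamily (PCDH8, PCDH10, PCDH17, PCDH18 and PCDH19), whose extracellular part is shorter. PCDH20 is usually placed outside both. Several of these genes, PCDH10, PCDH17, PCDH8 and PCDH20 among them, are known to be silenced in carcinomas by methylation of a promoter CpG island.

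The sequences below are the promoter windows of 3 genes whose probe sets were higher together on the PARK2 arrays, PCDH17 and PCDH18 of the delta-2 and PCDH9 of the delta-1 subfamily. They are from RefSeq on GRCh38.p14 and run 5′ to 3′ on the strand of the gene, from 250 bases before to 50 after its start, and capitals mark each CG dinucleotide. The table matched 7 of the 9 genes, and PCDH10 and PCDH20 did not match. PCDH17 lies on chr13:57631494-57631793 (plus strand), PCDH18 on chr4:137532445-137532744 (minus strand) and PCDH9 on chr13:67230287-67230586 (minus strand).
PCDH17: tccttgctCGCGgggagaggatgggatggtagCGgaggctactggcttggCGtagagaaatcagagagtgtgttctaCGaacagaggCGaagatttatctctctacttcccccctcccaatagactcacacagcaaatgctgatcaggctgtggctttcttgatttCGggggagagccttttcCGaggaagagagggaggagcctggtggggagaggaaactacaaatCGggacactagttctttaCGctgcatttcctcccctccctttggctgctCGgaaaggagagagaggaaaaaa
PCDH18: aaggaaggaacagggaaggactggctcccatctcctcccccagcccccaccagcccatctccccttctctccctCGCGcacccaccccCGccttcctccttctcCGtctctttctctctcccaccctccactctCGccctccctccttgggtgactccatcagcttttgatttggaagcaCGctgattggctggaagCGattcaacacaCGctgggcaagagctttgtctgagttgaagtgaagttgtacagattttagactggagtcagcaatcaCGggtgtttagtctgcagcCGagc
PCDH9: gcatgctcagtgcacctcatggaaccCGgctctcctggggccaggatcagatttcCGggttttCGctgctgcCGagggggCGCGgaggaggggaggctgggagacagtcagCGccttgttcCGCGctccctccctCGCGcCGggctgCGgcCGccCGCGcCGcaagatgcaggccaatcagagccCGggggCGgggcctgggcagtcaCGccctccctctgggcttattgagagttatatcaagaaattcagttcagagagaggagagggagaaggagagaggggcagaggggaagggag

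These windows held 11 CG dinucleotides for PCDH17, 10 for PCDH18 and 20 for PCDH9, against a median of 14 over the 27305 promoters of the table. At least 1 CG was found in 95.8% of all promoters. Among the other matched members, the windows held 26 CG dinucleotides for PCDH19, 20 for PCDH8, 16 for PCDH7 and 6 for PCDH1. PCDH9 and PCDH8 thus had the same number. Methylation was not measured, and a link between these counts and the array readings was not tested. The letters TATAAA, searched on both strands, were in the window of PCDH8 and in 11.95% of all promoters. They were not in the windows of the other 6 members, which says only that these letters are not there.

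**Figure D1:**
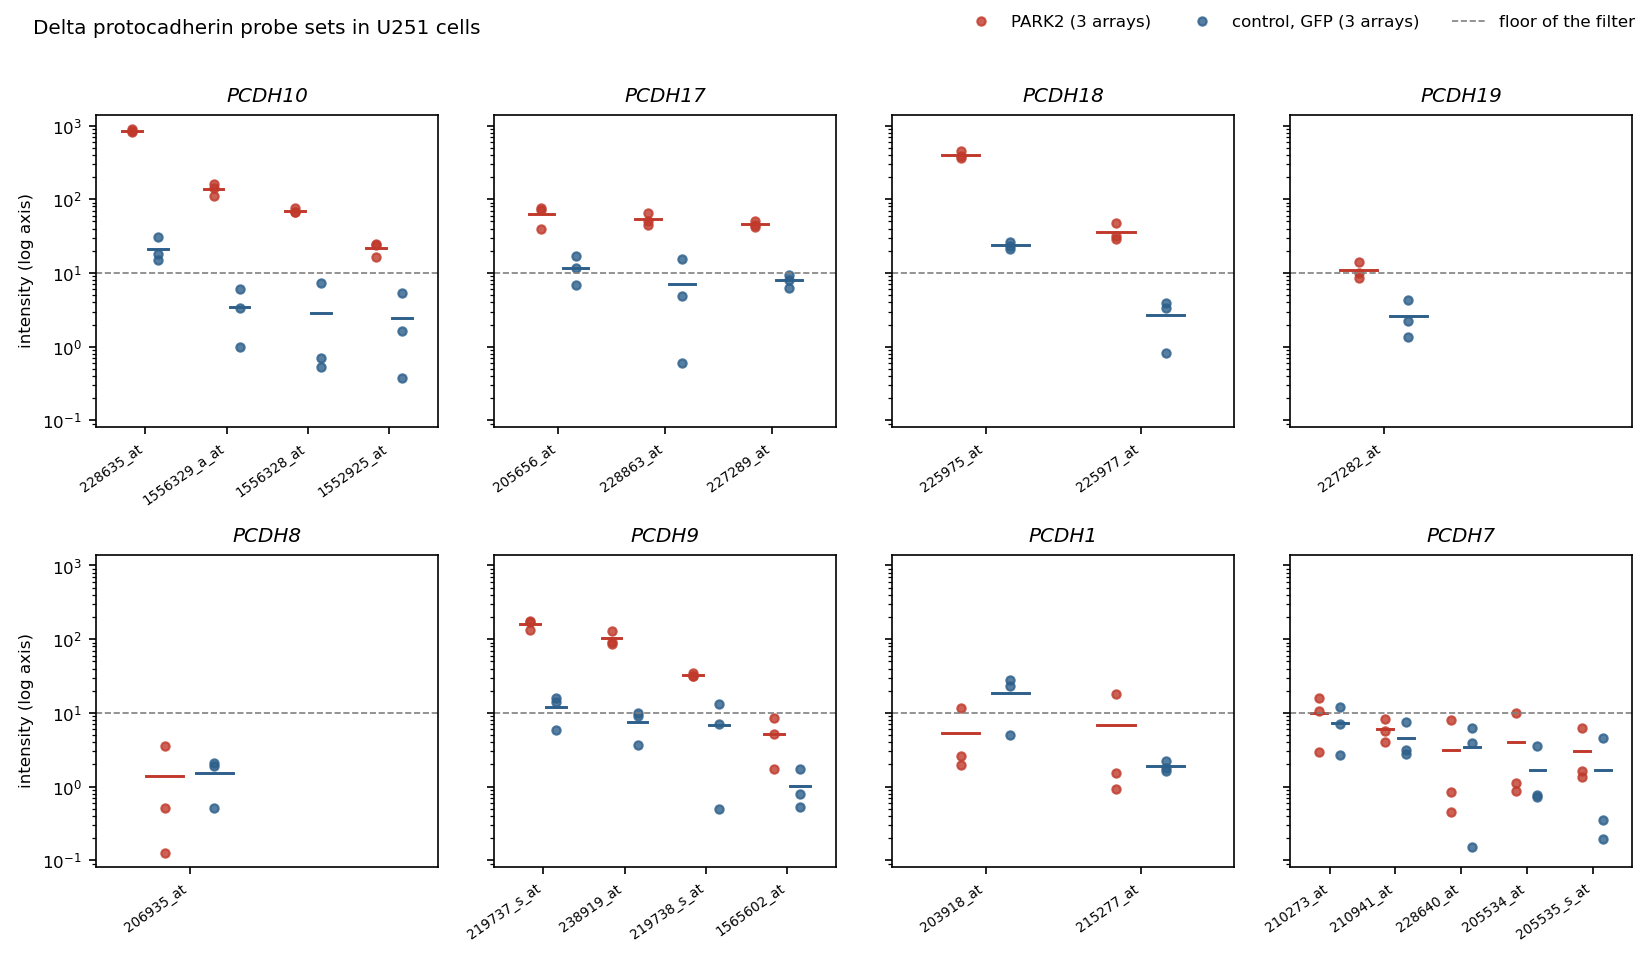
Intensity (log axis) of the 22 probe sets of the 8 genes with probe sets of their own, with PARK2 arrays to the left of control arrays for each probe set, 3 points per group and a line at the group mean. The dashed line is the floor of the filter on dim probe sets, 9.87 intensity units. All 4 PCDH10, all 3 PCDH17, both PCDH18, the PCDH19 and 3 of the 4 PCDH9 probe sets have their 3 PARK2 points above all 3 control points, while those of PCDH8, PCDH7 and PCDH1 overlap.

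PCDH10, PCDH17 and PCDH18 of the delta-2 subfamily and, of the delta-1 subfamily, only PCDH9 were higher on the PARK2 arrays. The other members with probe sets of their own stayed dim in both lines. A bright probe set shared by PCDH20 and LINC02339, outside the 22, was lower, as given below. All 3 PARK2 arrays lay above all 3 control arrays for 13 of the 22 probe sets, and none of the 22 had them wholly below. Over all probe sets with a single gene symbol, 12.5% had PARK2 arrays wholly above and 14.1% wholly below. The median log2 fold change of the 22 probe sets was 1.08, against 0.0017 over all 41091. A log2 fold change here is PARK2 minus control on the scale of log2(intensity + 16), where 16 is a pseudocount, and it understates the change of dim genes.

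PCDH10, a delta-2 protocadherin known to recruit the WAVE complex of actin regulators to cell contacts, is the gene for which the group was chosen. Its probe set 228635_at read 897, 831 and 828 intensity units on PARK2 replicates 1 to 3, against 30.8, 18.1 and 15.1 on control replicates 1 to 3. Its log2 fold change was 4.56 (SE 0.18), rank 6 from the highest of 26603 probe sets past the filter described next. The other 3 PCDH10 probe sets had lower readings and showed the same order of groups. Probe set 1556329_a_at read 109, 142 and 159.6 in PARK2 cells against 6.15, 3.32 and 0.99 in control cells, with a log2 fold change of 2.97 (SE 0.20). Probe set 1556328_at read 67.0, 66.4 and 76.5 in PARK2 cells against 0.54, 7.34 and 0.71 in control cells (2.21, SE 0.21). The 4 probe sets read the RNA of a single gene, so their common direction is not a repeat of the experiment. Probe set 1552925_at read 24.6, 16.4 and 24.0 in PARK2 cells against 0.37, 1.62 and 5.27 in control cells (1.03, SE 0.23).

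The filter dropped the dimmest probe sets, those with a 6-array mean below the 40th percentile, which corresponds to a floor of 9.87 intensity units. Of the 22 member probe sets 13 passed, and 8 of these 13 had a control mean under the floor. Those 8 passed only through the PARK2 arrays and had to differ, so their count supports nothing. In 3 of the 4 PCDH10 probe sets every control array was under the floor. For such probe sets the control level is not resolved, and the fold change follows the pseudocount. With pseudocounts of 1 and 64 the log2 fold change of 1556329_a_at was 5.11 and 1.57, and that of 228635_at was 5.32 and 3.43.

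PCDH18, the nearest member to PCDH10 on chromosome 4, is a delta-2 protocadherin whose mouse protein binds the adaptor Dab1. Its probe set 225975_at read 368, 453 and 387 in PARK2 cells against 23.5, 20.8 and 26.5 in control cells. Every PARK2 array was above every control array, and the log2 fold change was 3.40 (SE 0.17). Its dimmer probe set 225977_at read 31.4, 29.3 and 47.2 in PARK2 cells against 3.37, 3.86 and 0.82 in control cells (1.46, SE 0.22, and 3.42 and 0.58 with pseudocounts of 1 and 64). The groups did not overlap in either probe set, and the readings of 225975_at were above the floor on all 6 arrays. Those of 225977_at were under it on every control array, so this probe set passed the filter only through the PARK2 arrays.

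PCDH17, a delta-2 protocadherin that in mouse guides axon extension and presynaptic assembly, was higher on the PARK2 arrays in all 3 of its probe sets. Probe set 205656_at read 39.3, 77.0 and 70.5 in PARK2 cells against 6.84, 16.9 and 11.8 in control cells, with a log2 fold change of 1.47 (SE 0.23). Probe set 228863_at read 44.5, 50.9 and 64.4 against 0.60, 4.91 and 15.6 in control cells (1.63, SE 0.24), and 227289_at read 50.3, 44.6 and 42.2 against 6.29, 9.43 and 8.01 in control cells (1.37, SE 0.20). The PARK2 readings were modest, with means of 62.3 ± 20.1, 53.3 ± 10.2 and 45.7 ± 4.14 (SD, n = 3), against 11.9 ± 5.05, 7.04 ± 7.73 and 7.91 ± 1.57 in control cells.

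PCDH19, whose mutation causes an X-linked epilepsy that mainly affects females, has a single probe set. It read 13.9, 8.60 and 10.0 in PARK2 cells against 1.34, 2.20 and 4.25 in control cells. The groups did not overlap, but the probe set did not pass the filter, and its log2 fold change of 0.53 became 1.78 and 0.17 with pseudocounts of 1 and 64. PCDH8, known in rat as arcadlin, an activity-induced synaptic protocadherin, read 0.52, 3.52 and 0.13 in PARK2 cells against 1.92, 2.12 and 0.51 in control cells. All 6 of its values were under the floor and the groups overlapped, so PCDH8 was not measurable in either line.

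The delta-1 subfamily was split between PCDH9 and its relatives. PCDH9, which is expressed in neurons, read 135, 171 and 174 in PARK2 cells on probe set 219737_s_at, against 14.0, 15.8 and 5.95 in control cells. The log2 fold change was 2.67 (SE 0.20). Probe set 238919_at read 85.4, 92.5 and 129 in PARK2 cells against 9.98, 3.66 and 9.003 in control cells (2.32, SE 0.21), and 219738_s_at read 32.1, 31.2 and 34.5 against 7.13, 0.50 and 13.3 in control cells (1.12, SE 0.23). In these 3 probe sets every PARK2 array was above every control array. The control means of 238919_at and 219738_s_at were under the floor, so both passed the filter only through the PARK2 arrays and had to differ. With pseudocounts of 1 and 64 the log2 fold change was 3.67 and 1.21 for 238919_at, and 2.59 and 0.45 for 219738_s_at. The fourth PCDH9 probe set, 1565602_at, read 1.71, 5.20 and 8.51 against 0.79, 0.52 and 1.76 in control cells, under the floor on all 6 arrays and overlapping between the groups.

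PCDH1, a delta-1 protocadherin of airway epithelium and a receptor for hantaviruses, was dim and scattered. Probe set 203918_at read 11.6, 1.95 and 2.61 in PARK2 cells against 23.2, 4.98 and 28.4 in control cells. The groups overlapped through control replicate 2, and the log2 fold change of -0.66 (SE 0.28) did not pass limma's threshold. With the replicate number as a block in the fit the same value of -0.66 was called lower, as was -0.99 without control replicate 2. The PARK2 mean of 203918_at, 5.37, was under the floor, so it passed the filter only through the control arrays. Nothing is read from these calls. The other PCDH1 probe set, 215277_at, read 18.3, 0.93 and 1.55 in PARK2 cells against 1.63, 2.25 and 1.77 in control cells, a high value on a single array.

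PCDH7, a delta-1 protocadherin that binds the phosphatase inhibitor SET and protein phosphatase 1, had 5 probe sets, and 0 of them passed the filter. Its brightest, 210273_at, read 10.7, 2.99 and 15.9 in PARK2 cells against 7.001, 12.1 and 2.73 in control cells. The groups overlapped in all 5, and the log2 fold changes ran from -0.03 to 0.15. The probe set that lists PCDH20 together with LINC02339 and had the higher readings, 232054_at, read 445, 499 and 491 in PARK2 cells against 1739, 1421 and 1226 in control cells (log2 fold change -1.57). It was lower on all 3 PARK2 arrays, the opposite direction to PCDH10, PCDH17, PCDH18 and PCDH9, and was left unassigned because it cannot be given to either gene. The other such probe set, 1560566_at, was at 1.62 ± 1.19 in PARK2 and 2.39 ± 2.55 in control cells (SD, n = 3), under the floor.

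**Figure D2:**
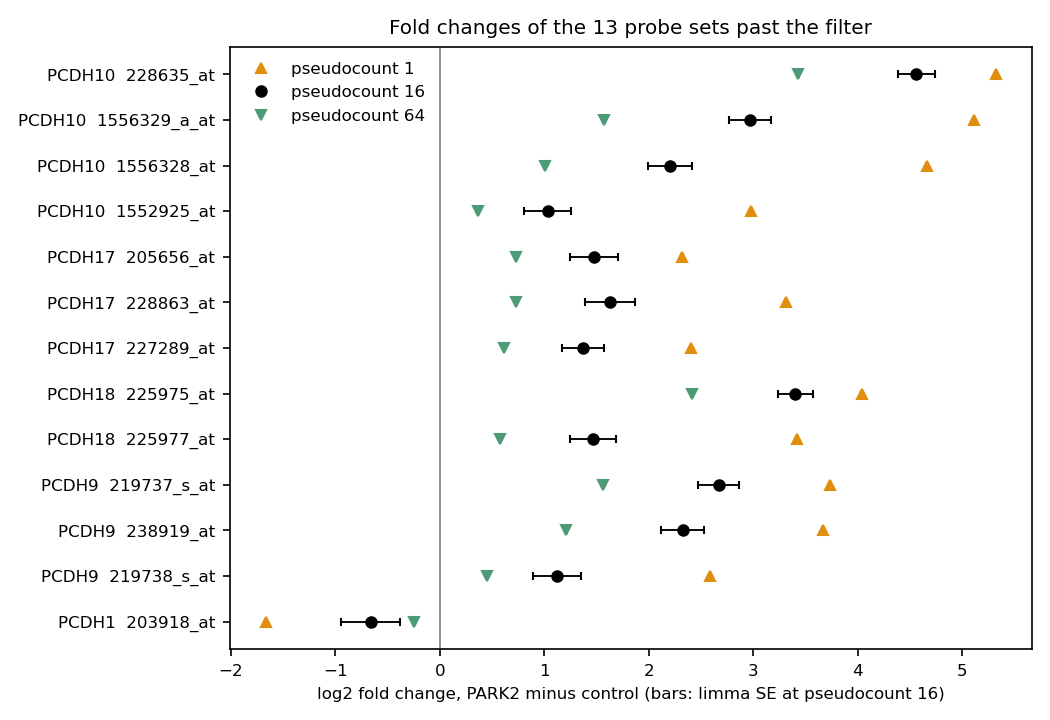
Log2 fold change, PARK2 minus control, of the 13 probe sets past the filter, with pseudocounts of 1, 16 and 64, and bars for the standard error from limma at a pseudocount of 16. The order of the 3 symbols shows how far a dim control level sets the size, from 1.00 to 4.66 for PCDH10 probe set 1556328_at but from 3.43 to 5.32 for 228635_at, and each probe set keeps its sign.

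Over the 26603 probe sets tested, limma called 9.10% higher and 11.3% lower in PARK2 cells at an adjusted p under 0.05. Of the 13 member probe sets tested, 12 were past this threshold with PARK2 higher, in PCDH10, PCDH17, PCDH18 and PCDH9, and 0 with PARK2 lower (1, of PCDH1, at an unadjusted p under 0.05). Since the comparison chose the group and 8 of the 13 passed the filter only through the PARK2 arrays, nothing is read from that count. The median log2 fold change of the 13 was 1.63, against -0.0060 over all probe sets tested. By subfamily, 9 of 11 delta-2 and 4 of 11 delta-1 probe sets passed the filter, and 9 and 3 were called. Of those past the filter, 6 of the 9 delta-2 and 2 of the 4 delta-1 probe sets had a control mean under the floor. The delta-2 calls also include 4 of PCDH10, the gene behind the choice, so these counts cannot compare the subfamilies. The number of all probe sets called higher, 2422, became 3635 when control replicate 1 was left out and 1529 when PARK2 replicate 3 was. With the filter at the 60th percentile, 5 member probe sets remained and were called, and without a filter 13 were, the additional one being that of PCDH19.

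Some genes beside the protocadherins on their chromosomes were also higher in PARK2 cells. For each of the 9 genes the 5 tested genes on either side in RefSeq order were taken, 54 different genes in all, with 1 probe set, the brightest, per gene. Of these 23 were higher and 1 lower, or 42.6% higher, against 13.3% higher and 15.6% lower of all 13720 genes tested. Their median log2 fold change was 0.29, against -0.0026 over all genes tested. Among the 23, ARAP2, NAP1L3 and MGARP had a control mean under the floor. These genes passed the filter only through the PARK2 arrays and had to differ, so their calls support nothing. How many of all genes tested passed in this way was not counted, so the 2 shares are given without a test. The count of 23 was 15 when control replicate 2 or PARK2 replicate 2 was left out. What part the position of the protocadherins had in their own values was not tested.

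PCDH10 and PCDH18 share the same 10 tested neighbours on chromosome 4, of which 3, or 30%, were higher. That share was near the 30.7% of the 505 other tested genes on chromosome 4, counted after these values were seen. SLC7A11, the cystine transporter, stood at 3112 ± 171 in PARK2 and 1676 ± 161 in control cells (SD, n = 3), 0.89 higher on the log2 scale (SE 0.13, adjusted p 4.4e-08 from limma). MGARP, a mitochondrial protein gene, was at 49.8 ± 3.82 in PARK2 and 6.498 ± 5.42 in control cells (1.57, SE 0.23, adjusted p 5.3e-08). The MGARP control mean was under the floor, so this gene passed the filter only through the PARK2 arrays and had to differ. Its p-value therefore supports nothing, and its size also followed the pseudocount, at 3.001 for 1 and 0.69 for 64. SCLT1, a centriole gene, was at 274 ± 29.4 in PARK2 and 164 ± 17.9 in control cells (0.69, SE 0.16, adjusted p 6.5e-04), but at 0.26 (adjusted p 0.196) as the mean of its probe sets. The median of the 10 was 0.25 on the log2 scale.

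Around PCDH7, on the other arm of chromosome 4, 8 of 10 neighbours were higher, with a median log2 fold change of 0.55, although no PCDH7 probe set passed the filter. The 8 include ARAP2, whose control mean was under the floor. On chromosome 13, where PCDH8, PCDH17, PCDH20 and PCDH9 lie near each other, 6 of the 14 different neighbours were higher and 1 was lower, with a median of 0.24. PCDH8 and PCDH17 share all 10 of their neighbours and had unlike values, PCDH8 under the floor on all 6 arrays and PCDH17 higher on every PARK2 array. Around PCDH19 on chromosome X 5 of 10 were higher, and around PCDH1 on chromosome 5 1 of 10. Those around PCDH19 include NAP1L3, whose control mean was under the floor. In counts added after these values were seen, 30.7% of the 505 other tested genes on chromosome 4 were higher and 4.36% lower, and 18.7% of 246 on chromosome 13 were higher and 7.72% lower.

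**Figure D3:**
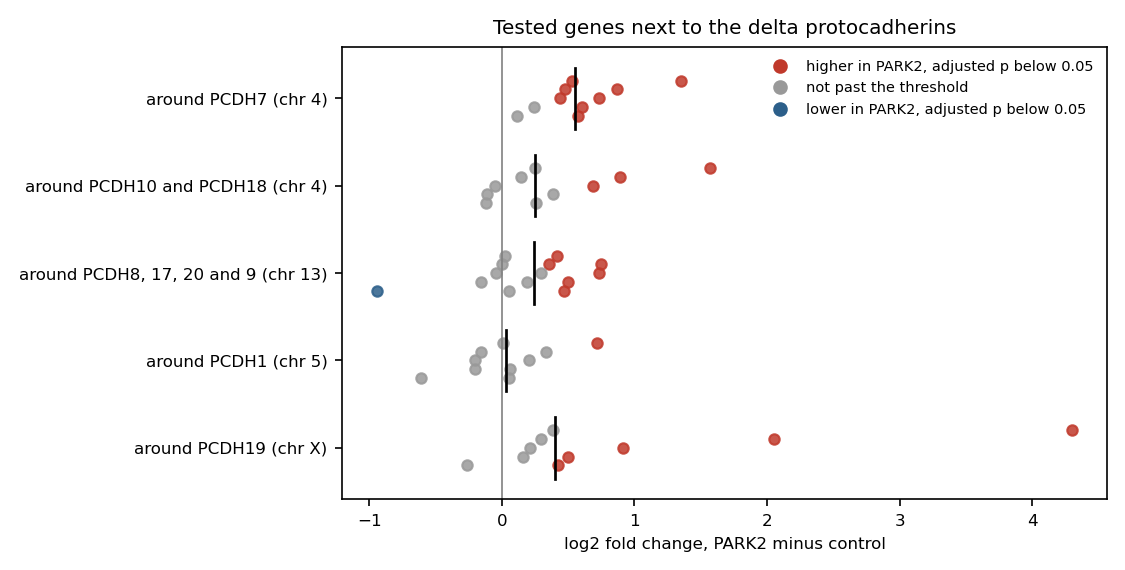
Log2 fold change, PARK2 minus control, of the tested genes on either side of the delta protocadherins, with each gene once per row, and a vertical line at the median of a row. The 8 red points around PCDH7 are genes past limma's threshold, as are 3 of 10 around PCDH10 and PCDH18 and 6 of 14 on chromosome 13, while the row of PCDH1 has a median of 0.03.

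The WAVE complex, which branches actin filaments below the membrane and is bound by the tails of several delta protocadherins, was described by a list of 11 genes, of which 9 were tested. Of these 1 rose and 2 fell, together 33.3%, against 28.8% of all genes tested, and the median log2 fold change was 0.02. CYFIP2, a subunit that binds RAC1, fell to 81.6 ± 5.90 in PARK2 cells, against 253 ± 56.6 in control cells (SD, n = 3), with a log2 fold change of -1.44 (SE 0.17) and an adjusted p of 2.6e-10 from limma. WASF3, which codes for one of the WAVE proteins, rose to 365 ± 25.0 in PARK2 cells, against 238 ± 16.8 in control cells (0.59, SE 0.16, adjusted p 0.0026). BRK1, the smallest subunit, had a log2 fold change of -0.36 (SE 0.13) with adjusted p 0.031, a call lost under 8 of the alternatives tried. NCKAP1, the subunit through which PCDH10 was linked to the complex, was at 0.03 (adjusted p 0.880). CYFIP1 was at -0.13 (adjusted p 0.528) and WASF2, another WAVE protein gene, at 0.18 (adjusted p 0.402).

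Of 22 reported partners of delta protocadherins 18 were tested, and 6 rose and 5 fell, or 61.1% against 28.8% of all genes tested. The median log2 fold change of the list was 0.17. This list, like the others, was chosen with earlier results of these data known, so its share is a description and not a test. FLRT3, an adhesion molecule that acts with the frog relative of PCDH8, rose to 325 ± 28.9 in PARK2 cells, against 111 ± 13.8 in control cells (1.43 on the log2 scale, SE 0.16, adjusted p 7.6e-11 from limma). CDH11, a classical cadherin, rose to 3792 ± 90.8 in PARK2 cells, against 1543 ± 149 in control cells (1.29, SE 0.13, adjusted p 1.9e-13), and the Wnt receptor gene FZD7 rose by 1.02 (SE 0.15, adjusted p 1.7e-07). SMAD3, a TGF-beta mediator that PCDH1 binds, fell to 785 ± 84.0 in PARK2 cells, against 1577 ± 162 in control cells (-0.99, SE 0.14, adjusted p 3.2e-08). DAB1 (0.92), MDM2 (0.72) and SPRY1 (0.48) also rose, and CDH2, the N-cadherin gene (-0.54), ADAM10 (-0.50), PPP1CA (-0.39) and PPP1CB (-0.38) also fell, all of them outside the rule for named genes and given after their values were seen. The control mean of DAB1, 16.3, was near the floor, so its size followed the pseudocount, at 1.43 for 1 and 0.44 for 64. The call of SPRY1 was lost with the replicate block (adjusted p 0.064) and when any 1 PARK2 array or control replicate 2 or 3 was left out. The calls of both phosphatase genes were lost without PARK2 replicate 2 (adjusted p 0.079 for PPP1CA and 0.124 for PPP1CB) and without PARK2 replicate 3 (0.066 and 0.153), so 3 partners in place of 5 were lower in each case. The same number was lower with no filter and with no intensity trend. The third phosphatase gene, PPP1CC, was at -0.10 (adjusted p 0.620), and SET, the partner of PCDH7, at 0.08 (adjusted p 0.714).

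Other large cadherins were mostly too dim to test, with 9 of 22 past the filter, of which 1 rose and 2 fell, or 33.3% against 28.8% of all genes tested. FAT4, a giant atypical cadherin of planar polarity and also a gene of chromosome 4, rose to 210 ± 17.3 in PARK2 cells, against 44.6 ± 1.06 in control cells (SD, n = 3), with a log2 fold change of 1.90 (SE 0.17) and an adjusted p of 2.0e-14 from limma. FAT3, its relative, fell to 339 ± 17.7 in PARK2 cells, against 641 ± 83.9 in control cells (-0.88, SE 0.15, adjusted p 3.9e-06), and CELSR2, a receptor of planar polarity, was at -0.47 (SE 0.16, adjusted p 0.019), a call lost with the replicate block (adjusted p 0.054) and when any 1 PARK2 array or control replicate 2 was left out. PCDH11X, another delta-1 gene, had no probe set past the filter. The list's median was -0.05.

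Of 12 genes reported to act on PCDH10 or on protocadherin promoters 10 were tested, and 2 rose and 2 fell, or 40% against 28.8% of all genes tested, with a median of 0.09. The MEF2 factors, which activate Pcdh10 in mouse neurons, went both ways. MEF2C rose to 357 ± 41.6 in PARK2 cells, against 167 ± 39.6 in control cells (1.04 on the log2 scale, SE 0.17, adjusted p 6.1e-07 from limma), while MEF2A fell to 197 ± 30.1 in PARK2 cells, against 431 ± 84.98 in control cells (-1.06, SE 0.16, adjusted p 2.7e-07). DNMT3B, a DNA methyltransferase, rose by 0.45 (SE 0.17, adjusted p 0.041), a call lost with the replicate block (adjusted p 0.075) and under 6 other alternatives. SUZ12, a subunit of the Polycomb complex that methylates histone H3, was lower with a log2 fold change of -0.53 (SE 0.13, adjusted p 9.0e-04), but was at -0.37 (adjusted p 0.088) as the mean of its probe sets. DNMT1 was at 0.21 (adjusted p 0.274) and EZH2 at -0.03 (adjusted p 0.896). Over the 4 lists together 11 genes fell, and 7 did without PARK2 replicate 2 or without PARK2 replicate 3.

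**Figure D4:**
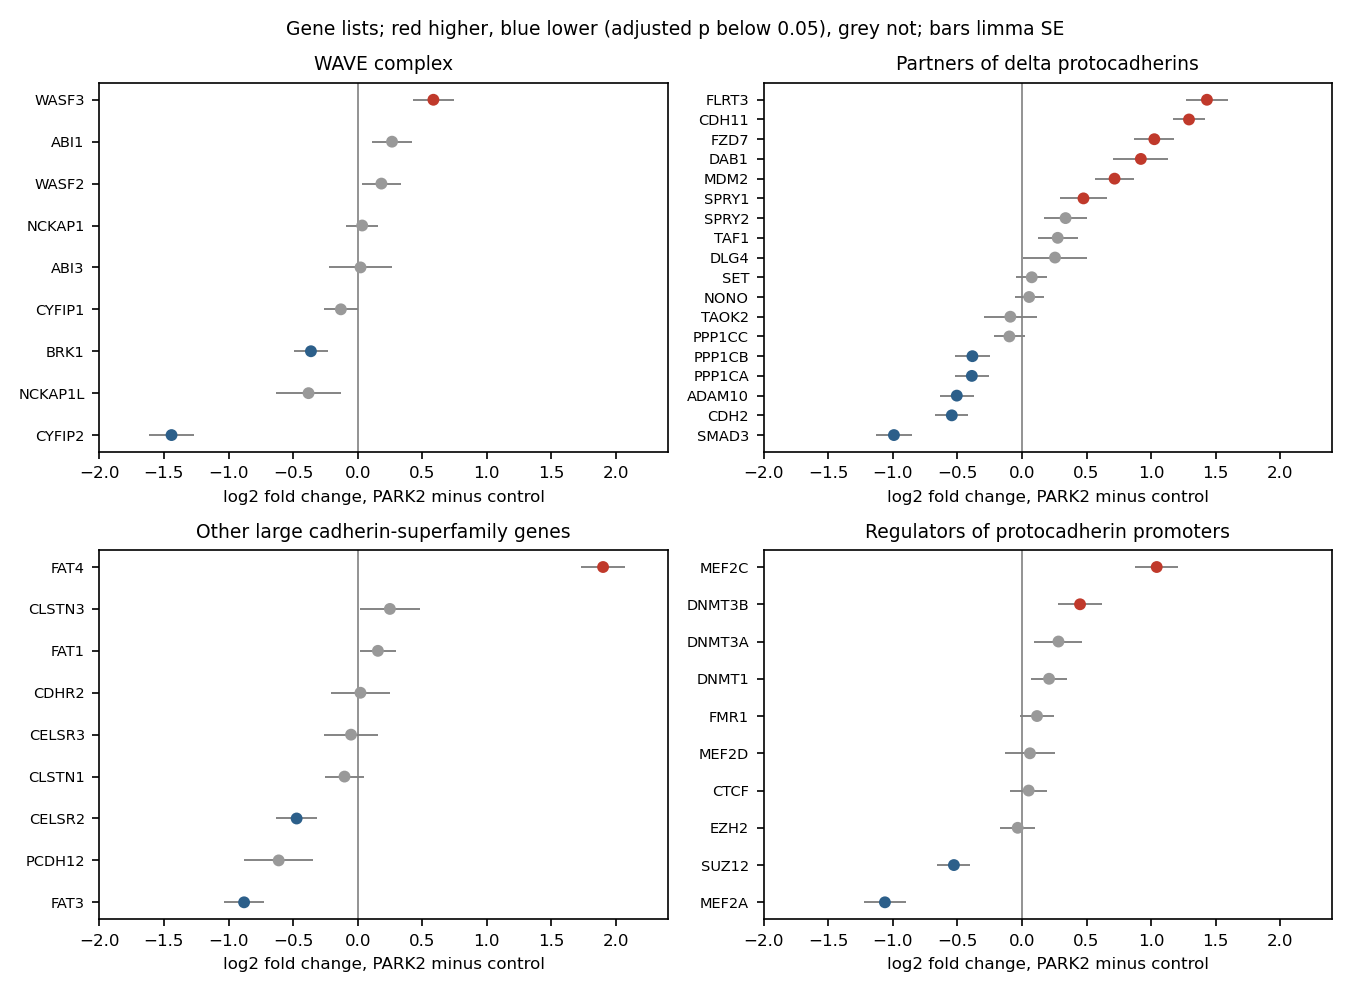
Log2 fold change, PARK2 minus control, of the tested genes of the 4 lists, with bars for the standard error from limma and colours for genes past its threshold. Each panel has genes on both sides of 0, from CYFIP2 at -1.44 to WASF3 at 0.59 in the WAVE complex and from FAT3 at -0.88 to FAT4 at 1.90 among the other cadherins.

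Markers of the glioma line were present in both groups. Of 12 astrocyte and glioma markers 11 passed the filter, with VIM between 8527 and 9514 in PARK2 and between 8573 and 9404 intensity units in control arrays, and AQP4 was under the floor on all 6 arrays. Of the 11, 2 fell and 2 rose, where 13.3% of all genes tested rose and 15.6% fell. S100B, a calcium-binding protein gene, ran from 122 to 132 in PARK2 and from 256 to 493 in control arrays (log2 fold change -1.39, adjusted p 9.3e-10), and the glutamate transporter gene SLC1A3 was at -0.72. GFAP, an intermediate filament gene, was at 0.53 and the stem cell factor gene SOX2 at 0.30. GFAP was at -0.027 (adjusted p 0.943) as the mean of its probe sets, and its call was also lost without control replicate 2 or PARK2 replicate 2. The call of SOX2 was lost without any 1 array other than control replicate 1. Of 10 neuronal markers 7 were tested and 4 rose, the vesicle gene SYT1 (log2 fold change 2.50), GAD1 (2.28), SNAP25 (1.26) and TUBB3 (0.48). Control readings of SYT1 (9.76 to 17.6), GAD1 (11.3 to 24.4) and SNAP25 (13.3 to 15.8) were near the floor, so these sizes followed the pseudocount. With pseudocounts of 1 and 64 they were 3.41 and 1.47 for SYT1, 3.08 and 1.34 for GAD1, and 1.89 and 0.63 for SNAP25. SYN1 (0.28), SLC17A7 (-0.14) and MAP2 (-0.26) did not pass the test. The summed intensity of the 10 ran from 5996 to 6415 in PARK2 and from 4186 to 4659 in control arrays, most of it TUBB3. STMN2 and ELAVL4 were under the floor on all 6 arrays, and RBFOX3 was at most 11.5 in PARK2 and 5.66 in control arrays. Of 8 oligodendrocyte-lineage markers 3 were tested and 1 fell, PDGFRA (-0.67), and OLIG2 and SOX10 were under the floor on all 6 arrays. The part of such genes in the values of the protocadherins was not tested.

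The tested genes most like PCDH10 over the 6 arrays were GPC4, FSCN1, COL13A1, C8orf48 and LINC02901, with Pearson correlations from 0.9991 to 0.99995. GPC4, a glypican gene, read 1116, 1107 and 1099 in PARK2 cells against 605, 565 and 558 in control cells. FSCN1, which codes for the actin bundler fascin, read 895, 878 and 883 in PARK2 cells against 311, 272 and 260.0 in control cells. The genes were picked for this likeness to probe set 228635_at, so a shared order of the arrays is built in. The points share the split into PARK2 and control arrays, so any gene with a large difference correlates highly, and 181 of 13720 genes were above 0.99.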

How the data were processed

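The series table deposited by the authors holds an intensity on a linear scale for every probe set, and the submitters' processing notes name GCOS and MAS5 without a version or scaling target. Array medians ran from 16.3 to 19.3 in PARK2 and 16.7 to 18.5 in control arrays, and no further normalization was applied. Means trimmed at both ends ran from 142 to 156 in PARK2 and from 138 to 169 in control arrays, the highest in control replicate 1. Transgene levels were not used here, and the labels of the lines were not checked against them. Gene symbols are those of the GEO annotation of the array (41091 probe sets with 1 symbol, 1801 with several and 11721 with none, beside 62 control probe sets). Gene order, promoters and gene numbers came from RefSeq on GRCh38.p14, whose table lacked the gene number of 54 probe sets.

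Intensities were turned into log2(value + 16). Probe sets under the 40th percentile of the mean log2 value were left out, and PARK2 was compared with control by limma 3.58.1 (R 4.3.3), allowing the variance to follow intensity, with Benjamini-Hochberg adjustment at 0.05. Members were fitted per probe set over 26603 probe sets, and lists and neighbours over 13720 genes with 1 probe set each. With 13.7 and 60.8 prior degrees of freedom in these fits, the smallest p-values lean on the variance model. The step was tested on simulated arrays with independent noise and few changed probe sets, so that test does not cover conditions like those here. Named genes were every member probe set, up to 4 genes past the threshold with the largest change per list, the neighbours of PCDH10 past it, and the 5 genes most correlated with PCDH10. The members and lists were chosen with earlier results of these data known.

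Correlations of log2 values ran from 0.983 to 0.990 within groups and from 0.954 to 0.962 between them, so no arrays were duplicates. The deviations of arrays with the same number from their group means were correlated (r of 0.40, 0.18 and 0.13 for replicates 1, 2 and 3), while differently numbered arrays reached 0.16 and 0.11. Each same-numbered pair was over 0.1, so a fit with the number as a block is given where it changed a call, but for replicates 2 and 3 the pairing is not distinct. The fit reported throughout has no block. With 3 arrays a group, the array number sets the limit of precision.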

Additional observations from a re-analysis of the deposited data

How the results depend on the processing

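Since the comparison chose the members, nothing is read from how their count of 12 higher held. It was 5 with the filter at the 60th percentile, since fewer probe sets were tested. With 1 probe set per gene 4 member genes were called. With the replicate block 1 member probe set was lower (PCDH1, -0.66, adjusted p 0.046), and leaving out an array gave 0 to 1. That probe set passed the filter only through the control arrays, so nothing is read from its calls. The block also changed the calls of CELSR2, DNMT3B and SPRY1, and of no other gene named with a test. GFAP was at -0.027 (adjusted p 0.943) as the mean of its probe sets. Array weights, whose estimate did not fully converge, gave 5905 probe sets higher and 5352 lower, 21 list genes higher and 6 neighbours lower, and quantile normalization gave 3702 probe sets higher. Neighbours lower numbered 0 with the filter at the 60th percentile and 2 with a pseudocount of 64. Leaving out an array gave 1529 to 3635 probe sets higher, 15 to 26 neighbours higher, 1 to 2 neighbours lower and 7 to 12 list genes lower. The cause of these changes was not tested. The alternatives for the neighbours, the markers and the list genes outside the rule were added after seeing the data. Dim readings limit the fold changes, whose size follows the pseudocount.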
